A study of Mus musculus with 8 samples.

Results

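The genes described here encode the abundant RNA-binding proteins of pre-mRNA splicing: the hnRNP proteins, the SR proteins, and the protein subunits of the spliceosomal snRNPs with the SF3a and SF3b complexes. They were taken by name, as all genes whose symbol on the array begins with Hnrnp, Hnrp, Sfrs, Srsf, Sf3a, Sf3b or Snrp followed by a letter or digit. The rule matched 52 genes, and 50 of them, among 13409 genes tested, had a probe above the negative controls on 2 or more arrays: 19 hnRNP genes, 11 SR protein genes, and 20 snRNP and SF3 genes. Hnrnpul2 and Srsf12 did not pass and are not described. One member, Pnisr, carries the symbol Sfrs18 on the array and is counted with the SR proteins by that name.

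RNA came from LLC1, a cell line of Lewis lung carcinoma from C57BL/6 mice, 4 h after X-rays. Irradiated cells had received 1 dose of 2 Gy (3 arrays), 1 dose of 10 Gy (2 arrays) or 5 fractions of 2 Gy (3 arrays, written 5x2 Gy), and each array compared them with untreated LLC1 cells. The third of the 3 biological replicates that the labels state for 10 Gy was not analysed here. Irradiated RNA was labelled with Cy5 and untreated RNA with Cy3 on all 8 arrays, so the dye and the treatment cannot be told apart for a single gene. All values below are log2 ratios of irradiated over untreated cells, or differences between regimens of such ratios. They are differences and not levels, and in cultured cells a changed ratio does not tell less RNA per cell from a changed mixture of cells.

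The file headers name 2 scanned images of 4 arrays each, called slides here. On slide 1 were all 2 Gy arrays together with replicate 1 of 10 Gy, and on slide 2 were all 5x2 Gy arrays together with replicate 2 of 10 Gy. Between 34.7% and 49.1% of probes were above background, as set by the negative control spots, in a channel of an array. Across genes, which are no independent replicates, Pearson's r was 0.427 between both 10 Gy arrays, and 0.748 to 0.854 between replicate 2 of 10 Gy and the fractionated arrays on the same slide. Cdkn1a, the p53-induced cell cycle inhibitor p21 and a check of the treatment, was at 0.88 after 2 Gy (not past the threshold), 2.6 after 10 Gy and 1.27 after 5x2 Gy. Of 5 carcinoma markers, Krt8, Krt18 and Vim were above background, and Cdh1 and Epcam were not. Of 7 markers of leukocytes, endothelium and stroma, Cd68, Cd3e, Cdh5 and Col1a1 had a probe above background, and Ptprc, Pecam1 and Pdgfrb had none.

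Most exons of a mammalian gene are joined by the spliceosome, whose U1, U2, U4 and U5 particles carry a ring of Sm proteins, and U6 a ring of LSm proteins, beside proteins of their own, while SF3a and SF3b belong to the U2 particle that binds the branch site. SR proteins bind exons and recruit the spliceosome to nearby splice sites, and hnRNP proteins coat nascent RNA and often repress splice sites. Many SR and hnRNP genes limit their own protein through a poison exon or a spliced untranslated region that sends the mRNA to nonsense-mediated decay, so their mRNA level is itself subject to splicing.

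Promoters of the 4 members on which the results below turn are shown with their windows from 250 bases before to 50 after the start site, from RefSeq for the mouse build GRCm38.p6. Srsf1, Srsf6 and Srsf7 were lower after every regimen, and Hnrnpa0 differed between regimens. Capitals mark the CCAAT box (CCAAT), the GC box (GGGCGG), an ETS site (CCGGAAG) and an E2F site (TTTGGCGC or TTTCCCGC), each searched on both strands and without overlaps between them. The sequences, 5′ to 3′ on the strand of the gene, lie at chr11:88047123-88047422 (plus strand, Srsf1), chr2:162931258-162931557 (plus strand, Srsf6), chr17:80207256-80207555 (minus strand, Srsf7) and chr13:58128507-58128806 (minus strand, Hnrnpa0).
Srsf1: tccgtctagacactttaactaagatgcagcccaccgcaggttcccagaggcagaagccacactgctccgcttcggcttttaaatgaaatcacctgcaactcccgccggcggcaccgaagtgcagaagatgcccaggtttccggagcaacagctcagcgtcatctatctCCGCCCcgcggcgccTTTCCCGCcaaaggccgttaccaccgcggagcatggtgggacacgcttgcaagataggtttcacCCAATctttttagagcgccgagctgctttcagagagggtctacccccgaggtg
Srsf6: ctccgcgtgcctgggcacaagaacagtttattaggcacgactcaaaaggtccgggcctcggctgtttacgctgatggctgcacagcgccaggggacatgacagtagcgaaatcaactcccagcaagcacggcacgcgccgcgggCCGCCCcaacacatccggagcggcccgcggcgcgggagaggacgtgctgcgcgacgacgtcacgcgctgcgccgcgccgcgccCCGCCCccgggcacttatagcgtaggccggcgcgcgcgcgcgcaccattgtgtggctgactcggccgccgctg
Srsf7: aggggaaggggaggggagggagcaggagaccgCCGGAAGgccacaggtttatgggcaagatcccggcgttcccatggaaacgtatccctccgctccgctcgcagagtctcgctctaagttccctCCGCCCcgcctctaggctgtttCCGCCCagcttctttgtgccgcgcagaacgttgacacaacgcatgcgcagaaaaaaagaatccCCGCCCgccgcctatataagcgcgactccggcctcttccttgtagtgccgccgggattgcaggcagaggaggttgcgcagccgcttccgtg
Hnrnpa0: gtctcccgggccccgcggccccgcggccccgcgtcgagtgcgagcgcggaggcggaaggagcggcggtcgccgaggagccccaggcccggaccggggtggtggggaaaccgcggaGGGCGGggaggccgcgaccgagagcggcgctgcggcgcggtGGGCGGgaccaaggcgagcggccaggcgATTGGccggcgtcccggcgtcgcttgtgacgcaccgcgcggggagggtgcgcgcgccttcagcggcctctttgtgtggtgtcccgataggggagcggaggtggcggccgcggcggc
The GC box lay in all 4 windows, the CCAAT box in those of Srsf1 and Hnrnpa0, the ETS letters in that of Srsf7 and the E2F letters in that of Srsf1. Of 32851 mouse promoter windows of this length, 35.7% held the GC box, 37.4% the CCAAT box, 8.86% the ETS site and 1.56% an E2F site. Of the 61 windows of the 44 members that had one, 67.2%, 45.9%, 32.8% and 6.56% held these motifs, in the same order. These matches describe letters only, and the binding of a factor was not measured.

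In limma, at a Benjamini-Hochberg adjusted p of 0.05 over all genes, 19 of the 50 members were lower after 5x2 Gy than in untreated cells, where 23.4% of all genes tested were lower. Of the members, 2 were higher, where 17.6% of all genes were. By class, 10 of 19 hnRNP genes were lower and 0 higher, 5 of 11 SR protein genes were lower and 0 higher, and 4 of 20 snRNP and SF3 genes were lower and 2 higher. The class medians of the log2 ratio were -0.52 for hnRNP, -0.33 for SR proteins and -0.23 for snRNP and SF3 genes, beside -0.02 for all genes tested. Of the 50 members, 43 had a mean ratio below 0, as had 6973 of all 13409 genes. The lower calls of members numbered 13 after 10 Gy, which has 2 arrays beside 3, where 15.8% of all genes were lower. With slide as a random block they were 4 after 5x2 Gy and 4 after 10 Gy, with slide as a fixed block 22 and 18. The shares of all genes with slide as a block are not given here.

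**Figure D1:**
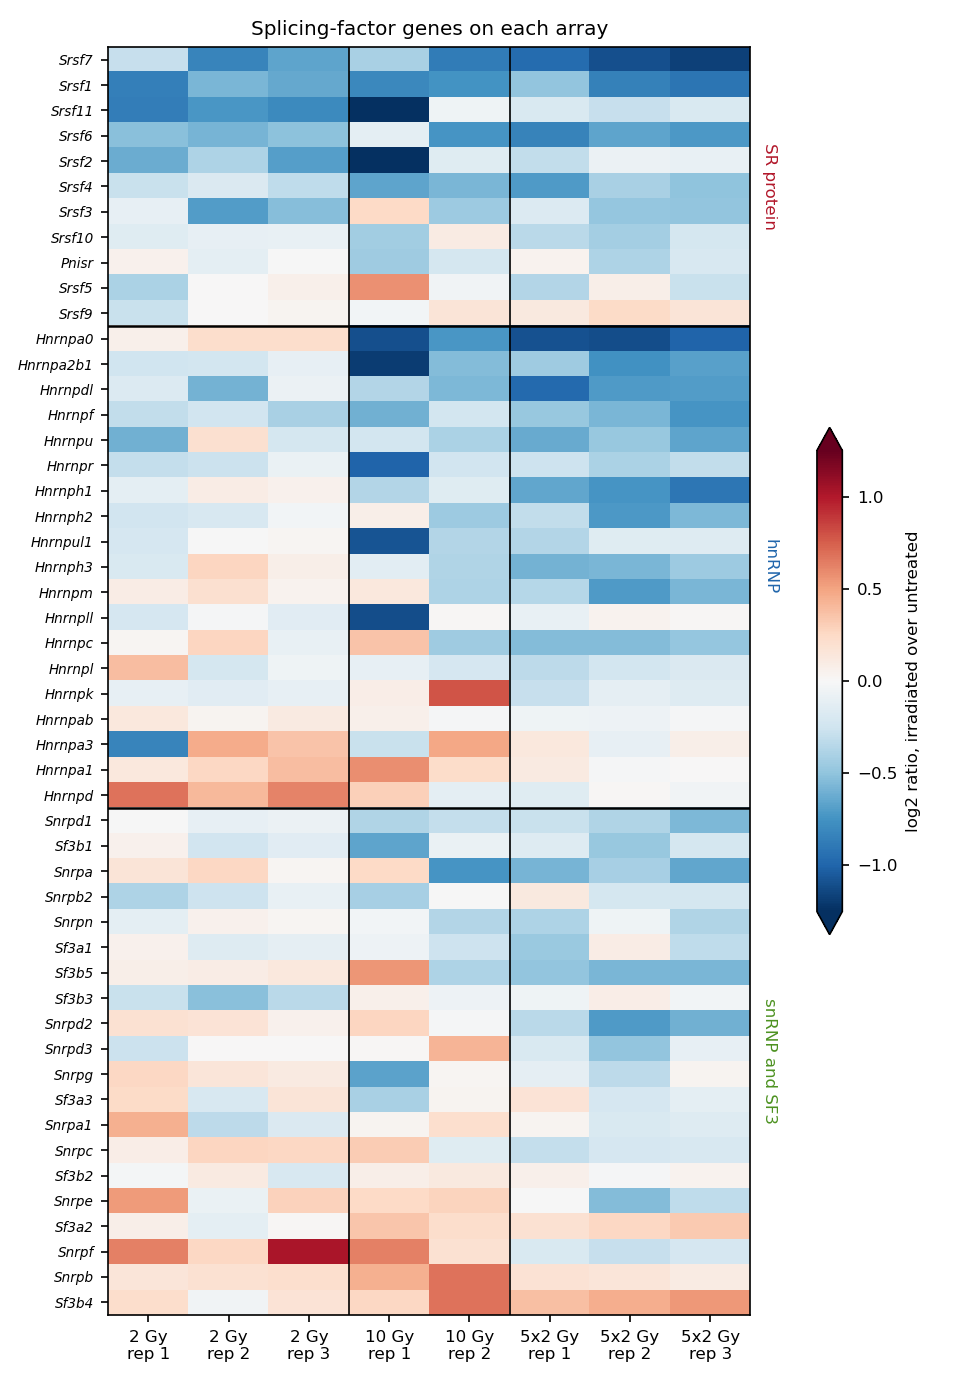
Heat map of the log2 ratios (irradiated over untreated, after loess) of the 50 members in rows, sorted by mean within the 3 classes, on the 8 arrays in columns, with colours cut at the ends of the scale. The 5x2 Gy columns are blue for most hnRNP and SR genes, Srsf1, Srsf6 and Srsf7 are blue on every array, and Hnrnpa0 changes from pale red on the 2 Gy arrays to dark blue on the others.

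How bright genes are scaled bears on every count against untreated cells, because members were bright: their median log2 intensity was 13.5, beside 9.91 for all genes. The ratios above were normalized by loess, which removes a dye trend over intensity within each array. Centring each array on its median instead raised the members' ratios by a median of 0.42 to 0.47 on the 2 Gy arrays, 0.70 on 10 Gy replicate 1, 0.19 on 10 Gy replicate 2 and 0.09 to 0.11 on the 5x2 Gy arrays. The larger shifts were thus those of slide 1. For all genes the median after 2 Gy was 0.13 with median centring and -0.00 with loess. Among genes called, the share of higher calls was 82.3% after 2 Gy and 58.7% after 10 Gy with median centring, beside 53.1% and 44.0% with loess.

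After 5x2 Gy the class medians kept their sign with median centring, at -0.37 for hnRNP, -0.29 for SR proteins and -0.08 for snRNP and SF3 genes. The calls were then 12 lower (20% of all genes) and 4 higher (19.1% of all genes), and all 12 were among the 19. They were Hnrnpa0, Hnrnpa2b1, Hnrnpdl, Hnrnpf, Hnrnph1, Hnrnph2, Hnrnph3, Snrpd1, Srsf1, Srsf4, Srsf6 and Srsf7. After 2 Gy and 10 Gy the SR protein medians were -0.03 and -0.11 with median centring, beside -0.45 and -0.43 with loess, and kept their sign. The snRNP and SF3 medians stayed above 0 and the hnRNP median after 10 Gy changed sign, as given with each class below.

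**Figure D2:**
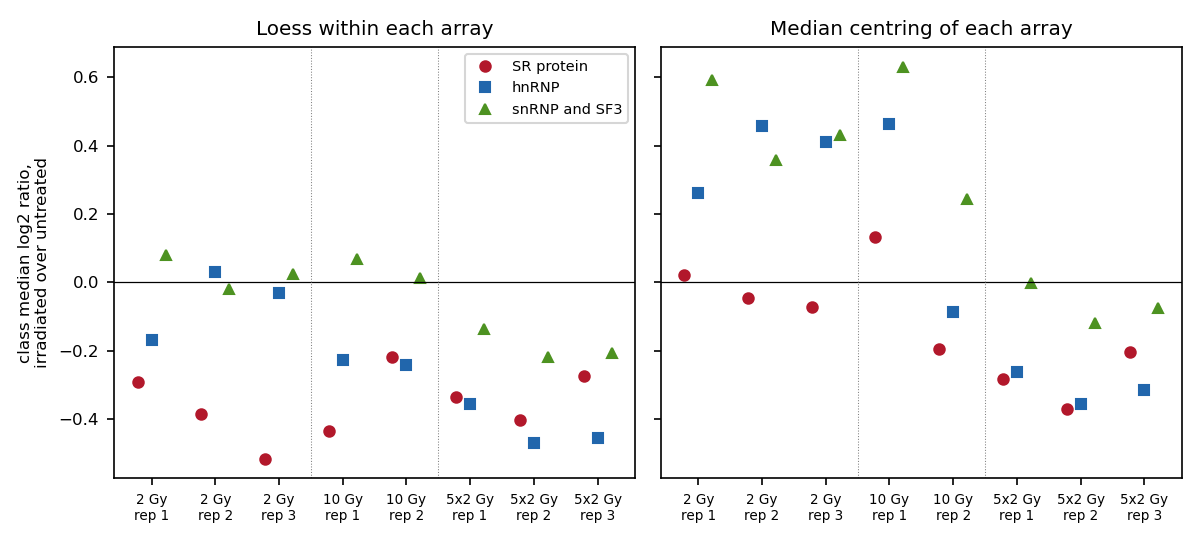
Median log2 ratio (irradiated over untreated) of the SR protein, hnRNP, and snRNP and SF3 genes on each of the 8 arrays, after loess (left panel) and after median centring (right panel). On the 5x2 Gy arrays all 3 classes lie below 0 in both panels, while on the 2 Gy arrays and 10 Gy replicate 1 the hnRNP median lies between -0.23 and 0.03 after loess and between 0.26 and 0.46 after median centring.

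Among SR proteins, Srsf1, Srsf6 and Srsf7 were lower after all 3 regimens and were the only members called in every comparison with untreated cells. They were singled out for that after their values were seen. Srsf1, the prototype SR protein and a proto-oncogene in mouse and human cells, had log2 ratios of -0.85, -0.57 and -0.64 on the 2 Gy arrays, -0.81 and -0.75 on the 10 Gy arrays, and -0.50, -0.84 and -0.92 on the 5x2 Gy arrays. The regimens overlapped, and no array was near 0. The means were -0.69 ± 0.11 (SE from limma, 1.61-fold lower, adjusted p = 0.0038), -0.78 ± 0.13 (adjusted p = 0.0026) and -0.75 ± 0.11 (adjusted p = 0.00084).

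Srsf6, whose product also acts on tau and wound-response exons, had ratios of -0.53, -0.59 and -0.52 after 2 Gy, -0.12 and -0.74 after 10 Gy, and -0.84, -0.66 and -0.72 after 5x2 Gy. Replicate 1 of 10 Gy alone stood near 0. Its means were -0.54 ± 0.12 (adjusted p = 0.014), -0.43 ± 0.14 (adjusted p = 0.049) and -0.74 ± 0.12 (1.67-fold lower, adjusted p = 0.0014). Srsf7, also known as 9G8 and a factor in mRNA export, had ratios of -0.29, -0.82 and -0.66 after 2 Gy, -0.41 and -0.87 after 10 Gy, and -0.96, -1.10 and -1.17 after 5x2 Gy. The 5x2 Gy arrays were the lowest and did not overlap with the others. The means of Srsf7 were -0.59 ± 0.13 (adjusted p = 0.014), -0.64 ± 0.15 (adjusted p = 0.014) and -1.08 ± 0.13 (2.11-fold lower, adjusted p = 0.0004).

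For these genes the calls after 5x2 Gy held with median centring, at -0.64 for Srsf1, -0.65 for Srsf6 and -1.0 for Srsf7. Those after 2 Gy ended there, at -0.18, -0.09 and -0.18, and so did those after 10 Gy, at -0.19, 0.05 and -0.21, where the value for Srsf6 changed sign. With slide as a random block, Srsf1 kept its call after 10 Gy only, Srsf7 kept its call after 5x2 Gy only, and Srsf6 kept none. All probes of the 3 genes above background, 2 for Srsf1, 2 for Srsf6 and 3 for Srsf7, were below 0 on all 8 arrays after loess.

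**Figure D3:**
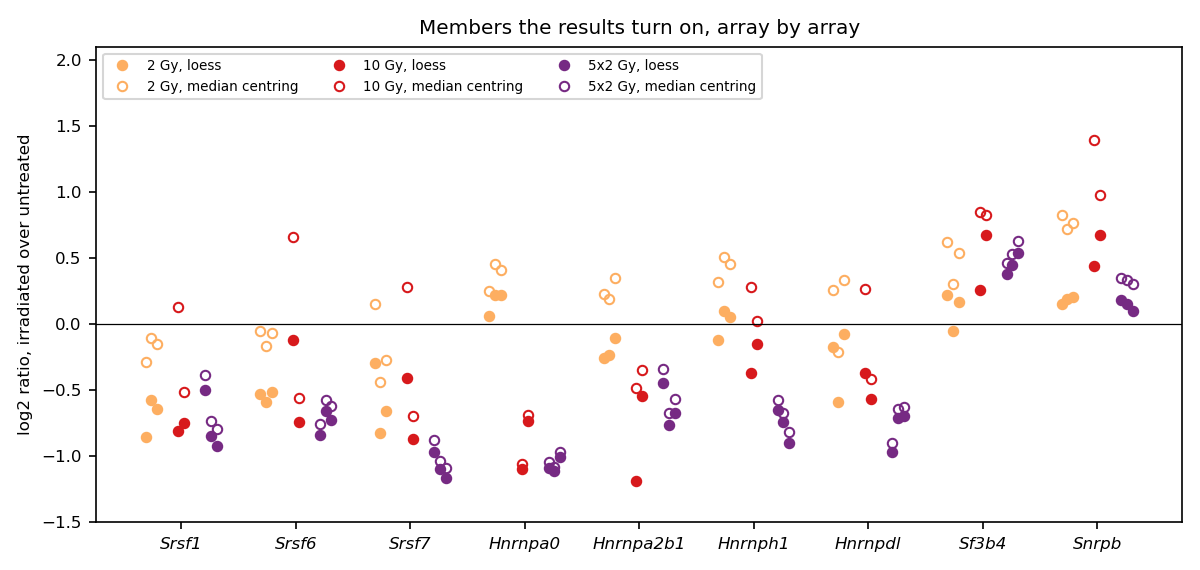
Log2 ratio (irradiated over untreated) of 9 members on each array, with filled points after loess and open points after median centring, in the order 2 Gy, 10 Gy and 5x2 Gy from left to right for each gene. Filled and open points lie near each other for 5x2 Gy, with Snrpb the furthest apart, and for Hnrnpa0 after 10 Gy. They lie apart for the bright genes after 2 Gy and on 10 Gy replicate 1, where Srsf1 is at -0.81 and 0.13.

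The other SR proteins differed more among regimens. Srsf4 had ratios of -0.27, -0.18 and -0.31 after 2 Gy, -0.66 and -0.57 after 10 Gy, and -0.71, -0.40 and -0.50 after 5x2 Gy. It was called after 10 Gy (-0.61 ± 0.11, adjusted p = 0.0041) and 5x2 Gy (-0.54 ± 0.09, adjusted p = 0.002), with both calls kept after median centring. Srsf10, a splicing repressor in mitosis and heat shock, was called after 5x2 Gy at -0.33 ± 0.11 (adjusted p = 0.039).

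For Srsf10 the probe for a second transcript (NM_001080387) gave lower values than the tested probe, at -0.55 after 2 Gy, -1.05 after 10 Gy and -1.07 after 5x2 Gy. The tested, brighter probe gave -0.11, -0.17 and -0.33 in the same order. A further probe lay between them.

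Srsf2 (SC35) and Srsf11 were called after 10 Gy on the strength of 1 array. Srsf11 had ratios of -2.10 and -0.05 on the 10 Gy arrays, -0.86, -0.72 and -0.80 on the 2 Gy arrays, and -0.19, -0.29 and -0.19 on the 5x2 Gy arrays. Every array of slide 1 was lower than every array of slide 2. Its mean after 10 Gy was -1.08 ± 0.35 (adjusted p = 0.044), and -0.05 without replicate 1 (adjusted p = 0.78).

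Srsf2, the brightest SR gene, split in the same way, at -1.55 and -0.15 after 10 Gy, -0.62, -0.38 and -0.69 after 2 Gy, and -0.31, -0.07 and -0.09 after 5x2 Gy. Its mean after 10 Gy was -0.85 ± 0.25 (adjusted p = 0.034), and -0.15 without replicate 1 (adjusted p = 0.44). The Srsf2 spot was saturated in the untreated channel of 3 arrays and in the irradiated channel of 1, which leaves its ratio inexact.

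Srsf3, the smallest SR protein, was at -0.45 after 2 Gy, -0.10 after 10 Gy and -0.39 after 5x2 Gy and passed no test. Srsf5, Srsf9 and Pnisr also passed none, with means between -0.33 and 0.26. Srsf9 was the highest SR gene after 5x2 Gy, at 0.13, 0.24 and 0.16. Srsf5 was the highest after 10 Gy, at 0.57 and -0.05.

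In the fit without slide, the members that differed between regimens were the hnRNP genes Hnrnpa0 and Hnrnph1. After 2 Gy, 1 of 19 was higher and 0 lower, with a class median of -0.00. After 10 Gy, 6 were lower and 1 higher (median -0.25), and after 5x2 Gy 10 were lower (median -0.52). With median centring the class medians were 0.40 after 2 Gy, 0.29 after 10 Gy and -0.37 after 5x2 Gy, so the first of them moved off 0 and the middle one changed sign.

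Hnrnpa0, which binds AU-rich elements and is known from human cells as a target of the DNA damage kinase MK2, gave the largest contrast. Its ratios were -1.10 and -0.73 after 10 Gy and -1.09, -1.11 and -1.0 after 5x2 Gy, against 0.06, 0.22 and 0.22 after 2 Gy. The groups were far apart, with no overlap between 2 Gy and the others. The mean was -0.91 ± 0.12 after 10 Gy (1.88-fold lower, adjusted p = 0.00086) and -1.07 ± 0.10 after 5x2 Gy (adjusted p = 0.00018), and 0.17 after 2 Gy, which did not pass the test.

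The second Hnrnpa0 probe was also above 0 after 2 Gy (0.46) and below 0 after 10 Gy (-0.94) and 5x2 Gy (-0.43), but its lowest value was that after 10 Gy, where the tested probe was lowest after 5x2 Gy. With median centring the tested probe was at 0.37, -0.87 and -1.03. Within slide 1, 10 Gy replicate 1 was lower than the mean of the 2 Gy arrays by a difference of -1.26. The 2 calls against untreated cells held with slide as a random block.

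Hnrnpa2b1, the closest relative of Hnrnpa1 in the family and a reader of RNA sorting and methylation signals, had ratios of -1.19 and -0.55 after 10 Gy, -0.44, -0.76 and -0.67 after 5x2 Gy, and -0.25, -0.23 and -0.10 after 2 Gy. All 8 were below 0. It was called after 10 Gy (-0.87 ± 0.15, adjusted p = 0.0035) and 5x2 Gy (-0.63 ± 0.13, adjusted p = 0.0042), also with median centring and with slide as a random block.

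Hnrnph1, which binds G-rich sequences, had ratios of -0.65, -0.74 and -0.90 after 5x2 Gy, -0.37 and -0.15 after 10 Gy, and -0.12, 0.10 and 0.05 after 2 Gy. The 5x2 Gy arrays were lowest, with no overlap. The mean after 5x2 Gy was -0.76 ± 0.10 (1.70-fold lower, adjusted p = 0.00051). Its relatives Hnrnpf, Hnrnph2 and Hnrnph3 were also lower after 5x2 Gy, at -0.60 ± 0.10, -0.53 ± 0.12 and -0.54 ± 0.11 (adjusted p = 0.0021, 0.0076 and 0.0038). All 4 genes of the H and F subfamily were thus called. A second Hnrnpf probe was at -0.03, and the Hnrnpf call held when the probes were averaged.

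Hnrnpdl, a relative of the AU-binding Hnrnpd, had ratios of -0.97, -0.71 and -0.69 after 5x2 Gy, -0.37 and -0.57 after 10 Gy, and -0.17, -0.59 and -0.07 after 2 Gy. Its mean after 5x2 Gy was -0.79 ± 0.12 (adjusted p = 0.0011), and it was also called after 10 Gy (-0.47 ± 0.14, adjusted p = 0.038). Hnrnpd itself was called after 2 Gy only, as higher. Its 2 Gy ratios were 0.68, 0.40 and 0.62 (mean 0.57 ± 0.11, adjusted p = 0.0084). On the other arrays it lay between -0.15 and 0.29.

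The scaffold protein Hnrnpu was at -0.58 ± 0.14 after 5x2 Gy (adjusted p = 0.0082), and Hnrnpm and Hnrnpc complete the 10, at -0.55 and -0.52. Hnrnpm and Hnrnpc followed the slides, at 0.14 and 0.36 on 10 Gy replicate 1, and at -0.39 and -0.44 on 10 Gy replicate 2. Hnrnpm, Hnrnpc and Hnrnpu lost their calls with median centring. Hnrnpul1 and Hnrnpr were called after 10 Gy alone and rested on replicate 1: Hnrnpul1 had ratios of -1.08 and -0.37 and Hnrnpr of -1.0 and -0.24. Without replicate 1 their adjusted p were 0.061 and 0.17. Hnrnpll had the same split, at -1.11 and 0.02, and was not called.

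Hnrnpa1, the most studied hnRNP protein and a repressor of exon inclusion, was the member of this class called as higher after 10 Gy. Its ratios were 0.58 on replicate 1 and 0.23 on replicate 2 (mean 0.41 ± 0.12, adjusted p = 0.034). The call rested on replicate 1, as did those of Hnrnpul1 and Hnrnpr. With its probes averaged that call was lost (0.23, adjusted p = 0.14). After 2 Gy it was at 0.26 and after 5x2 Gy at 0.03, neither called. Its 4 probes above background did not move alike. After 5x2 Gy, 2 of them, including the tested one, were at 0.03 and 0.11, and the other two were at -0.71 and -0.58.

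Hnrnpa3, the brightest hnRNP gene, behaved likewise, with 4 probes at 0.04, -0.42, -0.76 and -1.14 after 5x2 Gy. The brightest, tested probe was saturated in the untreated channel of 2 arrays. When all probes of a gene were averaged, both genes were called as lower after 5x2 Gy, Hnrnpa1 at -0.29 (adjusted p = 0.029) and Hnrnpa3 at -0.57 (adjusted p = 0.0043). With averaged probes 27 members were called as lower after 5x2 Gy, as were 3118 of all 13409 genes.

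**Figure D4:**
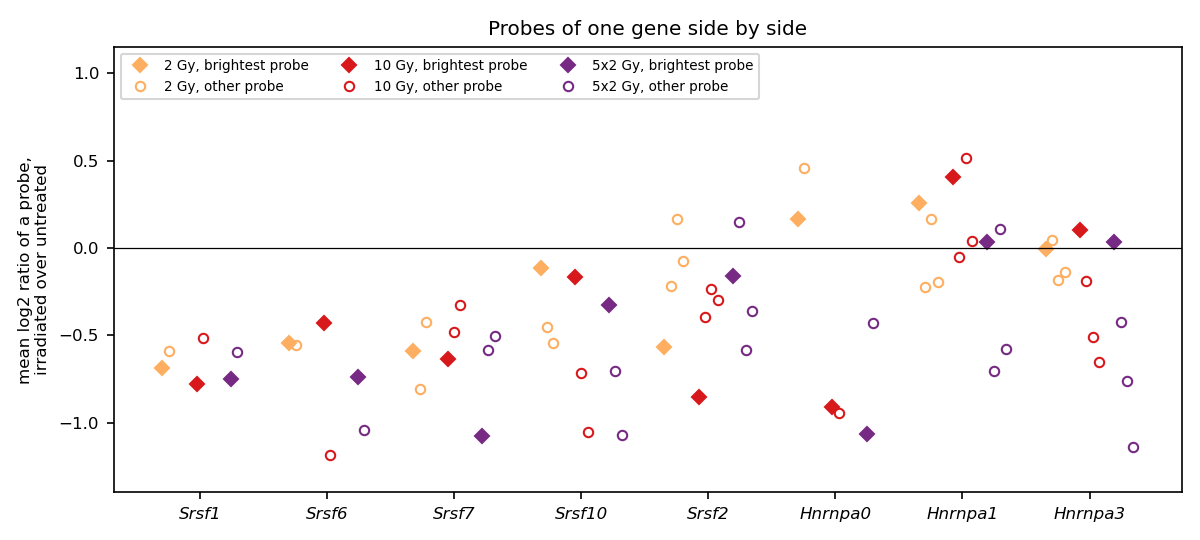
Mean log2 ratio (irradiated over untreated) of each probe above background for 8 members, in the order 2 Gy, 10 Gy and 5x2 Gy for each gene, with a filled diamond for the brightest probe, which was tested, and open circles for the others. All probes of Srsf1, Srsf6 and Srsf7 lie below 0, while those of Srsf2, Hnrnpa1 and Hnrnpa3 spread over both sides of 0 after 5x2 Gy.

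Of the 32 members with more than 1 probe above background, the mean ratios of the probes differed in sign in 12 after 2 Gy, 11 after 10 Gy and 11 after 5x2 Gy. In none did probes lie beyond 0.5 on both sides of 0. On all 8 arrays, all probes of Srsf1, Srsf4, Srsf6, Srsf7, Hnrnpa2b1 and Hnrnpr (1 probe) were below 0, and the single probe of Snrpb was above 0 on all 8. Pnisr was one of the members whose probes went apart, with the tested probe at -0.03, -0.33 and -0.18 and the other at 0.50, 0.56 and 0.55 over the regimens.

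Among the 20 snRNP and SF3 genes, 1 was lower and 1 higher after 2 Gy, 1 lower and 2 higher after 10 Gy, and 4 lower and 2 higher after 5x2 Gy. The shares lower were 5%, 5% and 20%, beside 7.94%, 15.8% and 23.4% of all genes, and the shares higher were 5%, 10% and 10%, beside 8.99%, 12.4% and 17.6%. The share lower after 5x2 Gy was thus near that of all genes. Class medians were 0.03, 0.08 and -0.23, and with median centring 0.43, 0.41 and -0.08. Sf3b4, an SF3b subunit that touches RNA next to the branch site, was higher after both regimens of 10 Gy in total, at 0.26 and 0.68 after 10 Gy (mean 0.47 ± 0.13, adjusted p = 0.024) and 0.38, 0.45 and 0.54 after 5x2 Gy (mean 0.46 ± 0.11, adjusted p = 0.008). The call after 10 Gy rested on replicate 2. Its 2 Gy ratios were 0.22, -0.05 and 0.17, lower than all the others after loess. With median centring the 2 Gy ratios were 0.63, 0.31 and 0.54, overlapping with 0.46, 0.53 and 0.63 after 5x2 Gy. The calls of Sf3b4 after 10 Gy and 5x2 Gy held with median centring.

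Snrpb, which encodes the Sm proteins B and B', was higher after 10 Gy at 0.44 and 0.68 (mean 0.56 ± 0.11, adjusted p = 0.0045) and stood at 0.18 and 0.14 after 2 Gy and 5x2 Gy. Sf3a2 was higher after 5x2 Gy, at 0.19, 0.26 and 0.32 (mean 0.26 ± 0.09, adjusted p = 0.038). Snrpf, the Sm protein F, was higher after 2 Gy at 0.63, 0.26 and 1.02 (mean 0.64 ± 0.14, adjusted p = 0.016), and a second probe was at 0.03. Snrpf followed the slides, at 0.63 on 10 Gy replicate 1 and between -0.29 and 0.19 on the slide 2 arrays. Its call did not hold when the probes were averaged (0.33).

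Those that fell after 5x2 Gy were the Sm protein genes Snrpd1 (-0.41 ± 0.09) and Snrpd2 (-0.55 ± 0.10), the U1 protein gene Snrpa (-0.55 ± 0.16) and the SF3b subunit gene Sf3b5 (-0.54 ± 0.15). Snrpa and Sf3b5 followed the slides, with Snrpa at 0.25 and Sf3b5 at 0.55 on 10 Gy replicate 1, and at -0.74 and -0.38 on 10 Gy replicate 2. Snrpd1 was also lower after 10 Gy (-0.34 ± 0.11, adjusted p = 0.045). A second, much dimmer Snrpd1 probe was at 0.82 after 10 Gy and 0.42 after 5x2 Gy, and both calls were lost when the probes were averaged. Sf3b3 was lower after 2 Gy, at -0.27, -0.52 and -0.34 (mean -0.38 ± 0.09, adjusted p = 0.02), and within 0.08 of 0 on the other arrays. Its other probes were at -0.40 and 0.07 after 2 Gy, and with the probes averaged it was not called (-0.24, adjusted p = 0.1).

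Sf3b1, the largest SF3b subunit and the one mutated in human leukaemias, was at -0.11 after 2 Gy, -0.37 after 10 Gy and -0.28 after 5x2 Gy and was not called. Snrpn, an imprinted gene for an Sm protein, was at -0.02, -0.20 and -0.27 and was not called either. Snrpg, the brightest of the class, lay between -0.67 and 0.26. The other members of the class passed no test.

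Over the whole set, a single dose of 2 Gy was followed by 4 lower and 2 higher members, where 7.94% of all genes were lower and 8.99% higher. With median centring 0 were lower (4.77% of all genes) and 21 higher (22.1% of all genes), 13 members having an unadjusted p under 0.05 after loess. The share of all genes at that unadjusted p is not given here. In limma without 2 Gy replicate 1, 2 or 3 the count of 6 became 2, 3 and 1. Without either 10 Gy array it was 14, and with slide as a random block 0.

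After 10 Gy, 13 members were lower and 3 higher, where 15.8% of all genes were lower and 12.4% higher. With median centring 3 were lower (12.1% of all genes) and 15 higher (17.1% of all genes), and Hnrnpa0, Hnrnpa2b1 and Srsf4 were the lower ones. The count of 16 became 4 with slide as a random block, 0 with the 10 Gy arrays fitted alone, and 9 or 10 without any one of the 2 Gy or 5x2 Gy arrays. The 10 Gy arrays differed from each other by a median of 0.54 for SR proteins, 0.42 for hnRNP and 0.37 for snRNP and SF3 genes, regardless of sign, and 2 arrays leave little to judge this spread.

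For 5x2 Gy the count of 21 became 12 without 5x2 Gy replicate 3, 15 without either of the other two, and 4 with slide as a random block: Hnrnpa0, Hnrnpa2b1, Hnrnph1 and Srsf7. With the 5x2 Gy arrays fitted alone it was 32.

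A dye effect that a gene shows alike on every array drops out of differences between regimens, which ask whether dose and fractionation matter. Whether the arrays shared untreated RNA was not tested, and the comparisons with 2 Gy share its 3 arrays. After 10 Gy against 2 Gy, 1 member was lower and 0 higher, where 1.52% of all genes were lower and 1.04% higher. It was Hnrnpa0, with a difference of -1.08 ± 0.15 (adjusted p = 0.022). The count was 8 without 10 Gy replicate 1, 14 without 10 Gy replicate 2 and 0 without any one of the other arrays. After 5x2 Gy against 2 Gy, 2 members were lower and 0 higher, where 0.925% of all genes were lower and 0.38% higher.

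They were Hnrnpa0, with a difference of -1.23 ± 0.14 (2.35-fold lower, adjusted p = 0.024), and Hnrnph1, with -0.77 ± 0.14 (1.71-fold lower, adjusted p = 0.038). Without either 10 Gy array 21 members were called in this comparison, and without any one of the other arrays 0 were. The 2 Gy and the fractionated arrays lay on different slides, and the slide effect can be estimated only through the 10 Gy arrays, 1 on each slide. With slide as a fixed block 11 members were called as lower and 0 as higher, with Hnrnpa0 at -1.60 and Hnrnph1 at -0.99. With slide as a random block those 2 genes alone were called. For the fits with slide as a block or without 1 array, the shares of all genes are not given here. Of all genes called, the higher share was 20.9% for 10 Gy against 2 Gy and 7.10% for 5x2 Gy against 2 Gy with median centring, beside 40.5% and 29.1% with loess, and for 10 Gy against 2 Gy it was 14.8% with arrays scaled to one spread. Within slide 1, 10 Gy replicate 1 was lower than the 2 Gy mean in 14 of 19 hnRNP genes, 6 of 11 SR genes and 8 of 20 snRNP and SF3 genes. These counts rest on 1 array of 10 Gy, and the share of all genes is not given here.

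After 5x2 Gy against 10 Gy, the same total dose in fractions or at once, 0 members were called in limma, and 0% of all genes were higher and 0% lower. At an unadjusted p under 0.05 there were 11 members, without the share of all genes beside them. The largest SR difference was that of Srsf11 (0.85) and the lowest hnRNP difference that of Hnrnpk (-0.62), for both of which the 10 Gy arrays stood far apart. Without 10 Gy replicate 2 the count was 20, and that comparison lies across the slides. Within slide 2, the 5x2 Gy mean was lower than 10 Gy replicate 2 in 17 of 19 hnRNP genes (median difference -0.16), 15 of 20 snRNP and SF3 genes (-0.14) and 6 of 11 SR genes (-0.00). These counts also rest on 1 array of 10 Gy, and the share of all genes is not given here.

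Splicing genes outside the name rule were described from lists of related factors, whose counts are read against all genes. Of all genes 7.94%, 15.8% and 23.4% were lower and 8.99%, 12.4% and 17.6% higher after 2 Gy, 10 Gy and 5x2 Gy. With median centring 4.77%, 12.1% and 20% were lower and 22.1%, 17.1% and 19.1% higher. Of 41 splicing regulators, 9 were lower and 2 higher after 2 Gy, 11 lower and 3 higher after 10 Gy, and 17 lower and 2 higher after 5x2 Gy. The shares lower were 22%, 26.8% and 41.5%. Tra2b, the SR-like activator Tra2-beta, was at -0.89 ± 0.11, -1.11 ± 0.14 and -1.22 ± 0.11 over the 3 regimens. Fubp1, a single-stranded nucleic acid binder, was at -0.99 ± 0.11, -1.15 ± 0.13 and -0.97 ± 0.11. Both were called in all 3, and with median centring as well, at -0.61, -0.90 and -1.18 for Tra2b and -0.82, -1.13 and -0.93 for Fubp1.

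Syncrip, known as hnRNP Q but not matched by the name rule, was at -1.14 ± 0.12 after 10 Gy and -0.82 ± 0.10 after 5x2 Gy. Cirbp, the cold-inducible RNA-binding protein, went the other way after 2 Gy, at 1.03 ± 0.10 (adjusted p = 0.0011). Median centring gave 1.26. With median centring the calls of this list were 3 lower and 10 higher after 2 Gy, 6 lower and 7 higher after 10 Gy, and 14 lower and 4 higher after 5x2 Gy.

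Of 50 core spliceosome genes outside the rule, 7 were lower and 0 higher after 2 Gy, 10 lower and 6 higher after 10 Gy, and 15 lower and 7 higher after 5x2 Gy. The shares lower were 14%, 20% and 30%, and the shares higher 0%, 12% and 14%, near those of all genes after 10 Gy and 5x2 Gy. Dhx15, the helicase that takes the spliceosome apart, was at -0.78 ± 0.09, -1.02 ± 0.11 and -0.93 ± 0.09, called in each. Prpf39, a U1-associated protein (-1.33 ± 0.16 and -1.13 ± 0.13), and Prpf38b (-0.74 ± 0.10 and -0.90 ± 0.08) were lower after 10 Gy and 5x2 Gy. With median centring the list had 1 lower and 15 higher after 2 Gy, 7 and 13 after 10 Gy, and 13 and 8 after 5x2 Gy.

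Of 13 LSm genes, not all of which encode subunits of the rings of U6 and of mRNA decay, 1 was lower after 2 Gy, 4 after 10 Gy and 7 after 5x2 Gy, and 0 were higher. The shares lower were 7.69%, 30.8% and 53.8%. Lsm8, the U6-specific subunit, was at -0.85 ± 0.15 after 10 Gy and -1.06 ± 0.12 after 5x2 Gy, and Lsm14a, a processing body protein, at -0.76 ± 0.15 and -0.79 ± 0.12. Of 8 kinases of SR proteins, 3, 4 and 2 were lower over the regimens and 0 higher, which is 37.5%, 50% and 25% lower, the last near the share of all genes, with Prpf4b at -0.60 ± 0.12, -0.95 ± 0.15 and -0.93 ± 0.12. Clk1, which releases SR proteins from speckles, was lower after 10 Gy (-0.77 ± 0.23) and 5x2 Gy (-0.61 ± 0.18). With median centring the LSm genes had 0 lower and 4 higher after 2 Gy, 2 lower and 2 higher after 10 Gy, and 7 lower and 1 higher after 5x2 Gy. The kinases then had 2 lower after each regimen, and 1 higher after 2 Gy and 0 after the others.

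Of 15 genes of the exon junction complex and nonsense-mediated decay, 2, 4 and 8 were lower over the regimens and 0 higher. The shares lower were 13.3%, 26.7% and 53.3%. Smg1, the kinase that starts this decay, was at -1.04 ± 0.12 after 10 Gy and -1.02 ± 0.10 after 5x2 Gy, and Upf2 at -0.63 ± 0.14 and -0.82 ± 0.11. With median centring both kept their calls, at -1.05 and -0.98 for Smg1 and -0.65 and -0.78 for Upf2, and the list had 1 lower and 3 higher after 2 Gy, 4 lower and 2 higher after 10 Gy, and 6 lower and 0 higher after 5x2 Gy.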

How the data were processed

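Per the file headers, the deposited scanner files hold the mean intensity of each spot in 2 channels from ImaGene 9.0, with no background subtracted and no normalization. The deposited series table holds the authors' log2 ratio per probe; its normalization method is not given in the sources used here. Its columns were compared with loess ratios computed here without background correction, not with the background-corrected ratios used above. They had r = 0.998 to 1.000 and slopes of 0.993 to 0.999, which sets scale and direction, with medians of -0.00 to 0.01. Array precision is limited by the number of arrays, 8.

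From the intensity values, background was corrected by normexp (offset 50, no local background), ratios were normalized by loess within each array, and spots of a probe were averaged, in limma 3.58.1 (R 4.3.3). Of 41174 probes, 21685 exceeded the median of the 153 negative control spots by 2.6 scaled median absolute deviations, in either channel, on 2 or more arrays; the brightest probe stood for its gene. Regimen means and their differences were tested in one fit over all 13409 genes with lmFit and eBayes. The labels call the replicates biological without describing separate cultures, so p-values measure the spread between these samples. Spots flagged in the files were kept, since the flags' meaning is not given in the sources used here; the tested probe of 37 of the 50 members was flagged on at least 1 array, Hnrnpf on 8, Hnrnpu on 6 and Hnrnph1 on 5, and Srsf1 and Hnrnpa0 on 0. Symbols were updated through RefSeq accessions for 27902 probes. The fit was also run on simulated ratios with known changes after 10 Gy. Of genes changed by 0.5 on the log2 scale 16% were called, of those changed by 1 78%, and of those changed by 2 100%. A member that was not called may thus still have changed.

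The members and gene lists were chosen with earlier results of these data known. Named were, per comparison, up to 10 members called in each direction with all arrays one way, or regimens without overlap; the highest, lowest and brightest member of each class; Hnrnpa1, Srsf1, Srsf2, Srsf3, Sf3b1 and Snrpn; and up to 3 called genes of smallest p per companion list. Other members were named after their values were seen. Same-numbered arrays of different regimens had deviations correlated at -0.243 to 0.115 over 7 pairs, 1 of them over 0.1. With 2 arrays, the 10 Gy deviations mirror each other and follow the slides, so pairs with 10 Gy cannot show a pairing. The pairs of 2 Gy with 5x2 Gy were at -0.02, -0.03 and -0.03. The numbers were not taken as pairs. Alternatives were no background correction, median centring, scaling between arrays, the deposited log2 values, no filter, the mean of probes, slide or replicate number as a block, separate fits, and leaving out each array.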

Additional observations from a re-analysis of the deposited data

Results flagged for a closer look

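Hnrnpa0 differed between regimens under the same contrast with untreated cells, by -1.08 on the log2 scale for 10 Gy against 2 Gy (adjusted p = 0.022 in limma) and by -1.23 for 5x2 Gy against 2 Gy (adjusted p = 0.024). Every 10 Gy and 5x2 Gy array was below every 2 Gy array. Hnrnph1 differed by -0.77 for 5x2 Gy against 2 Gy (adjusted p = 0.038), also with no overlap. With slide as a random block the 3 differences were -1.21, -1.49 and -0.93, all called. With the replicate number as a block the differences were -1.05, -1.23 and -0.77, about as large, and none was called (adjusted p = 0.078, 0.13 and 0.13 in limma). No regimen has the 4 arrays needed for a test of single outlying arrays.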

How the results depend on the processing

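Counts of members called after 2 Gy, 10 Gy and 5x2 Gy (6, 16 and 21) became 21, 18 and 16 with median centring, 12, 8 and 19 with scaling between arrays, 11, 24 and 23 with slide as a fixed block, 0, 4 and 4 with slide as a random block, and 12, 0 and 32 with each regimen fitted alone, which leaves fewer arrays to estimate the spread. For 10 Gy against 2 Gy (1) they were 2 with median centring, 0 with scaling, 14 and 8 with slide as a fixed and a random block, and 0 in the separate fit; for 5x2 Gy against 2 Gy (2) they were 10 with median centring, 1 with scaling, 4 with the mean of probes, 11 with slide as a fixed block and 21 in the separate fit. Over all genes, calls numbered 2271, 3779 and 5491 against untreated cells. They became 3609, 3909 and 5234 with median centring, and 4128, 2737 and 3979 with scaling. Against 2 Gy, 343 and 175 genes were called, 494 and 746 with median centring, and 27 and 56 with scaling. For the blocks, the separate fits and the fits without 1 array, all-gene calls are not given here. With the replicate number as a block, a pairing that was not established, counts of members were 6, 8 and 20 against untreated cells and 0, 0 and 0 between regimens. Leaving out 1 array gave 1 to 14 after 2 Gy, 9 to 22 after 10 Gy, 12 to 30 after 5x2 Gy, 0 to 14 for 10 Gy against 2 Gy, 0 to 21 for 5x2 Gy against 2 Gy and 0 to 20 for 5x2 Gy against 10 Gy. Signs turned, with a call in one setting, for Hnrnpa3 after 2 Gy (0.63) and Snrpg after 10 Gy (0.39) with median centring, for Hnrnpa1 (-0.29) and Hnrnpa3 (-0.57) after 5x2 Gy with the mean of probes, and for Hnrnpll (-1.02), Srsf11 (-1.48) and Srsf2 (-0.99) in 5x2 Gy against 2 Gy with slide as a fixed block; the cause was not tested. Of 97 values of named members, 97 kept direction and side of the threshold without the filter, 96 without background correction, 95 with the deposited log2 values, 75 with median centring and 72 with slide as a random block. Saturation in 4 bright members, one dye orientation and 2 arrays of 10 Gy limit precision.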
